A study of Saccharomyces cerevisiae with 16 samples.

Results

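The libraries compared here were the 4 collected 10 min after CaCl2 was added, 2 from cells pre-treated with the drug FK506 and 2 from cells pre-treated with ET buffer, out of 16 libraries in the series. They were taken by their sample labels, and the 2 groups were compared directly at that time over all genes. The remaining 12 libraries were collected at 0, 30 and 60 min from the same 4 time courses, 2 for each pre-treatment. All cells were *Saccharomyces cerevisiae* of strain YJB622, a haploid *MATa* strain of the BY4741 background with *ura3*, *leu2*, *his3* and *met15* deletions, in which *CRZ1* was replaced by KanMx and *HOG1* by *LEU2* and Hcm1 carried a 3HA tag. Every culture, control included, therefore lacked Crz1 and Hog1. Cells grew in synthetic media with ammonium chloride as nitrogen source, and received ET buffer or 1 μg/ml FK506 for 15 min before CaCl2 was added to 200 mM. FK506 was thus already present at 0 min. The cultures were asynchronous and of 1 strain, so a larger share of cells in a cell cycle stage and more mRNA per cell cannot be told apart.

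Calcineurin (CN) is a phosphatase that is activated by calcium and calmodulin. FK506 binds the prolyl isomerase Fpr1, and this complex inhibits CN. In yeast, CN acts largely through the transcription factor (TF) Crz1, while the MAP kinase Hog1 drives the response to high osmolarity. Cyclic transcription in the cell cycle depends on SBF and MBF at G1/S, on Hcm1 in S phase, on Fkh2 with Mcm1 and the coactivator Ndd1 at G2/M, and on Swi5 at the M/G1 transition. The comparison asks how expression in calcium-treated cells differs early on when CN is inhibited and neither Crz1 nor Hog1 is there to act.

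Total counts of the 4 libraries lay between 11244885 and 11822890, so a count of 0 allows at most 0.267 CPM (CPM are counts divided by the total of all counts in that library, times 1e6), for counting error only. *HOG1*, *URA3* and *MET17* (the *met15* locus) had 0 counts in each of the 16 libraries and *CRZ1* had 2 counts in all, so the deleted genes matched the labels. Over the 16 libraries the 6 *MATa* markers ranged from 930 to 2180 counts for *MFA2* up to 10293 to 18121 for *STE2*, with *MFA1*, *AGA2*, *STE6* and *BAR1* in between. The 4 markers of the opposite mating type ranged from 19 to 77 counts for *MFALPHA1*, 90 to 260 for *MFALPHA2* and 174 to 574 for *STE3* up to 568 to 1069 for *SAG1*, so none was at 0 and *SAG1* reached the lowest *MATa* values.

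Of 6206 genes tested, 389 (6.27%) differed between FK506 and ET at 10 min with a Benjamini-Hochberg (BH) adjusted p under 0.05 in limma, which is the threshold for every gene called below. FK506 was higher for 192 of them (3.09%) and lower for 197 (3.17%). Most differences were small. The median size of a called log2 difference (FK506 minus ET, as throughout) was 0.39, and 126 called genes reached 0.5. Only 11 called genes (0.177%) reached a size of 1, and 9 of those averaged at least 10 counts; the others were *YKR032W* and *YLL066W-B*, named after their values were seen. All 389 genes had the same direction in both replicate numbers. The CPM values of the groups did not overlap for 388 of them, against 24.5% of all genes tested with FK506 above ET and 24.4% with FK506 below. The median log2 difference of all genes was -0.01.

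**Figure D1:**
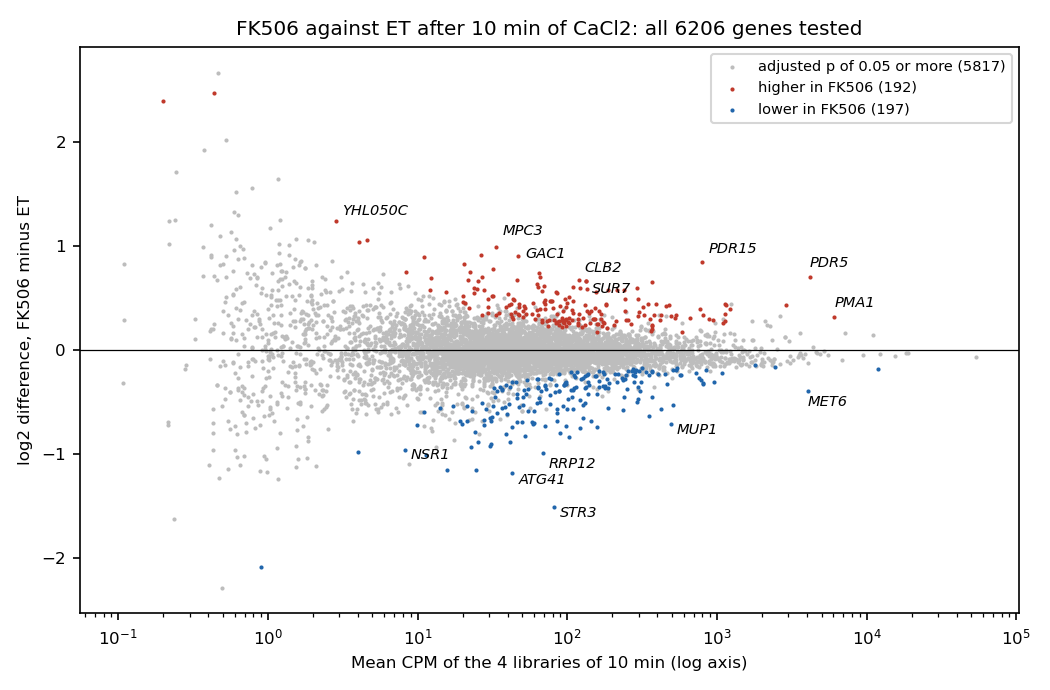
log2 difference between FK506 and ET at 10 min (vertical axis) against the mean CPM of the 4 libraries (horizontal log axis) for all 6206 genes tested. Red points are the 192 genes higher and blue points the 197 genes lower in FK506, and most of both lie within 1 log2 unit of 0 while *STR3* stands lowest among the well-counted genes at -1.50.

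The number of calls depended on which libraries were used and on the terms of the fit. Leaving out ET replicate 1 left 86 calls, ET replicate 2 left 230, FK506 replicate 1 left 241 and FK506 replicate 2 left 100, each with 1 lone library assumed to vary like the other groups. Without the replicate number in the fit, 164 genes were called.

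The gene with the smallest p was *STR3* (chromosome VII, 154615 to 156012 of build R64), which encodes cystathionine beta-lyase of the methionine pathway. It had 127 and 114 CPM in the ET libraries and 48.5 and 37.7 CPM in the FK506 libraries. Both FK506 libraries were far below both ET libraries, and the log2 difference was -1.50 ± 0.10 (SE, adjusted p = 2.71e-07). The drug efflux pump gene *PDR5* (chromosome XV, 619840 to 624375) was among the most highly expressed of the called genes, with 3137 and 3156 CPM in the ET libraries and 4884 and 5486 CPM in the FK506 libraries. Its log2 difference was 0.70 ± 0.061 (SE, adjusted p = 5.73e-06). *SUR7* (chromosome XIII, 170402 to 171310), which encodes an eisosome protein of the plasma membrane, had 102 and 102 CPM in the ET libraries and 165 and 162 CPM in the FK506 libraries, a log2 difference of 0.67 ± 0.059 (SE, adjusted p = 5.73e-06). *GAC1*, which encodes a regulatory subunit that directs the phosphatase Glc7 to glycogen synthase, had 30.8 and 33.6 CPM in the ET libraries and 62.2 and 59.8 CPM in the FK506 libraries, and its log2 difference was 0.90 ± 0.080 (SE, adjusted p = 5.73e-06). In each of these genes the libraries of a group lay close together and the groups were well apart. The other genes among the 10 smallest p-values were *CLB2*, *PDR15*, *PNS1*, *ATG41*, *MUP1* and *TPO1*.

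**Figure D2:**
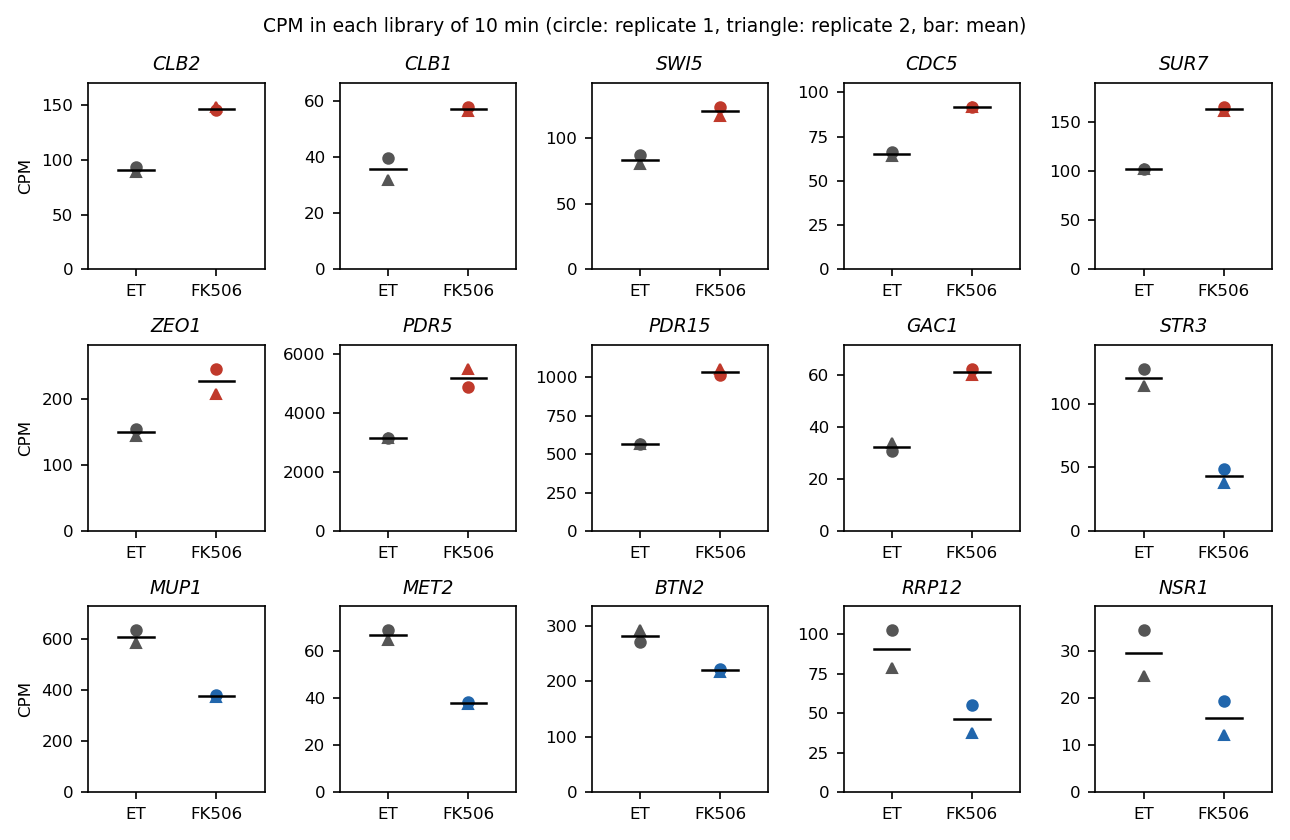
CPM in each of the 4 libraries of 10 min for 15 genes, with circles for replicate 1, triangles for replicate 2 and a bar at the mean of each group (n = 2, vertical axes from 0). In each panel both FK506 libraries lie on the same side of both ET libraries.

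Among called genes averaging at least 10 counts, the highest log2 differences were those of *YHL050C* (1.25), *RGI2* (1.06), *SPO16* (1.04), *MPC3* (0.99), *DAK2* (0.91), *GAC1*, *NRM1* (0.90), *PDR15* (0.85), *MSA2* (0.83), *YNL194C* (0.78), *YGR035C* (0.75) and *YLR297W* (0.75). *YHL050C* is uncertain, because 80% of its 50-base windows occur elsewhere in the genome. *MPC3* encodes a subunit of the mitochondrial pyruvate carrier and *DAK2* a dihydroxyacetone kinase. *MPC3* had 24.5 and 19.9 CPM in ET and 49.6 and 39.7 CPM in FK506, and *DAK2* had 18.02 and 18.4 CPM in ET and 34.7 and 34.6 CPM in FK506, with FK506 above ET in both replicates. The lowest were *PFS1* (-2.09), *STR3*, *ATG41* (-1.18), the small nucleolar RNA *snR80* (-1.15), *HCA4* (-1.15), *TRM11* (-1.004), *RRP12* (-0.99), *HIT1* (-0.98), *RRS1* (-0.96), *NSR1* (-0.93), *PUF6* (-0.92) and *ENP2* (-0.90). *PFS1* averaged 10.5 counts and is the least certain of these. *HCA4*, *RRP12*, *RRS1*, *NSR1*, *PUF6* and *ENP2* all act in the assembly of ribosomes.

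Genes of the G2/M program were higher in FK506. Of 38 Fkh2/Ndd1 targets, 20 were called higher and none lower, beside 3.09% and 3.17% of all genes. The median log2 difference of the list was 0.30, against -0.01 for all genes, and all 38 members lay above 0 (from 0.03 to 0.83). In limma 28 members had an unadjusted p under 0.05, and edgeR called 19. The median was 0.30 within replicate 1 and 0.29 within replicate 2. The list shares 8 genes with the SBF/MBF targets, and the 30 that are not shared held 17 calls with a median of 0.31.

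*CLB2* (chromosome XVI, 771653 to 773128), which encodes the main mitotic cyclin, had 93.2 and 89.3 CPM in the ET libraries and 146 and 148 CPM in the FK506 libraries. The libraries of a group differed far less than the groups, with a log2 difference of 0.67 ± 0.064 (SE, adjusted p = 1.1e-05). Its paralog *CLB1* had 39.6 and 31.7 CPM in the ET libraries and 57.7 and 56.5 CPM in the FK506 libraries, a log2 difference of 0.68 ± 0.11 (SE, adjusted p = 0.00137), and no 50-base window of either gene occurs elsewhere in the genome. *CDC5*, the polo kinase gene, had 66.6 and 64.1 CPM in ET and 91.5 and 91.6 CPM in FK506, a log2 difference of 0.47 ± 0.070 (SE, adjusted p = 0.000751). *SWI5*, which encodes a TF of the M/G1 transition, had 87.2 and 80.5 CPM in ET and 124 and 117 CPM in FK506, a log2 difference of 0.51 ± 0.075 (SE, adjusted p = 0.000684). In each of these 4 genes both FK506 libraries exceeded both ET libraries. *CDC20*, an activator of the anaphase-promoting complex, had 40.2 and 48.9 CPM in ET and 57.5 and 54.8 CPM in FK506 and passed the threshold narrowly at 0.32 (adjusted p = 0.0478). Other called members were the haspin kinase gene *ALK1* (0.63), *SRC1* (0.35) and, named after their values were seen, *BUD4* (0.38), *HOF1* (0.29) and *CHS2* (0.25), which act at the bud neck and in cytokinesis. The genes of the regulators themselves did not pass, with 0.36 (adjusted p = 0.122) for *FKH2* and 0.20 (adjusted p = 0.113) for *NDD1*.

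From 0 to 10 min, 25 of the 38 targets fell and 3 rose in ET, while 10 fell and 6 rose in FK506. The median log2 changes were -0.33 and -0.09. Of all 6206 genes tested, 1976 fell and 1652 rose in ET, and 1873 fell and 1514 rose in FK506. At 0 min the median difference between FK506 and ET was 0.00 and no target was called (limma), beside 1.56% of all genes. The test of the difference in change called *CLB2* (0.70, adjusted p = 0.00626) and *CLB1* (0.87, adjusted p = 0.0368) among the 38, and 5 genes (0.0806%) in all, 0.0645% of genes higher, with 432 genes at an unadjusted p under 0.05. It uses the same 10 min libraries as the direct comparison. The count of 20 dropped with fewer libraries. It was 8 without ET replicate 1, 12 without ET replicate 2, 11 without FK506 replicate 1 and 12 without FK506 replicate 2.

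A paired site bound by Mcm1 and Fkh2 is known from promoters of G2/M genes, and it is shown here for 3 called targets whose match lies well upstream of the start codon. The Mcm1 match (CC and GG with any 6 bases between) and the forkhead match (GTAAACA on either strand) are in capitals, each read 5′ to 3′ on the strand of the gene from the R64 genome.
SWI5 chrIV:751019-751077 (minus strand): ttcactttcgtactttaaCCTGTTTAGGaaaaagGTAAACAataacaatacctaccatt
BUD4 chrX:598520-598578 (plus strand): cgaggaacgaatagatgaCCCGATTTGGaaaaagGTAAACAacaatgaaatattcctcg
HOF1 chrXIII:335064-335122 (plus strand): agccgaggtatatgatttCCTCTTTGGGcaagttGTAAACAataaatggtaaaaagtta

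In *SWI5*, *BUD4* and *HOF1* the forkhead letters follow the Mcm1 letters closely and on the strand of the gene. A forkhead match within 40 bases of an Mcm1 match, a pairing chosen after the promoters were scanned, was found in 26.3% of the 38 promoters (600 bases before the start codon) and in 1.56% of 5762 promoters of genes tested. The share was 8.47% of the genes called higher and 1.56% of those called lower. The windows of *CLB2*, *CLB1*, *CDC5* and *CDC20* held no forkhead match, which says only that these letters are not in them.

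Among targets of the earlier cell cycle factors a smaller share was called. Over all genes 3.09% were higher and 3.17% lower. Of 134 SBF/MBF targets 16 were higher and 4 lower in FK506, with a median of 0.12, and of 96 Hcm1 targets 11 were higher and 2 lower, with a median of 0.09. The higher SBF/MBF targets included *NRM1*, a corepressor of MBF, with 6.78 and 8.54 CPM in ET and 12.4 and 16.6 CPM in FK506 and a log2 difference of 0.90 ± 0.16 (SE, adjusted p = 0.0027). *RNR1*, the large subunit gene of ribonucleotide reductase, had 410.3 and 467 CPM in ET and 521 and 590.1 CPM in FK506, a log2 difference of 0.33 ± 0.070 (SE, adjusted p = 0.0103). The cohesin gene *MCD1* (0.35, adjusted p = 0.00627) was higher as well. In both *RNR1* and *MCD1* replicate 2 exceeded replicate 1 in each group, and the lowest FK506 library stayed above the highest ET library. The G1 cyclin gene *CLN2* was lower at -0.24 (adjusted p = 0.0444), whereas *CLN1* had 127 and 132 CPM in ET and 134 and 147 CPM in FK506 and did not pass (0.10, adjusted p = 0.381). *YOX1* (0.09, adjusted p = 0.56) and *HCM1* itself (0.20, adjusted p = 0.0635) did not pass either. Among Hcm1 targets the mitotic kinesin gene *KIP1* (0.48) and *WHI5* (0.69), a repressor of SBF, were higher, and the malic enzyme gene *MAE1* (-0.67) was lower. With 1 library left out, between 1 and 5 SBF/MBF targets and between 2 and 6 Hcm1 targets were called higher, lowest in both lists without ET replicate 1.

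In the Mcm cluster 9 of 37 genes were higher and none lower (limma, with 14 of the 37 at an unadjusted p under 0.05 and 8 called by edgeR), with a median of 0.04. Besides *MCM7* of the replicative helicase (0.30) and *SPO12* of mitotic exit (0.42), they were mainly genes of the cell surface, such as *EIS1* (0.33), *MRH1* (0.31) and *SED1* (0.34). In lists by function, 7 of 24 cyclins and CDK regulators and 8 of 22 cell cycle TFs were higher, and 1 and 0 lower. The TFs had a median of 0.31 and also included *PLM2* (0.49) beside *SWI5*, *NRM1*, *MSA2* and *WHI5*. *FAR1*, a CDK inhibitor gene of the pheromone response, was higher at 0.26 (adjusted p = 0.0444).

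**Figure D3:**
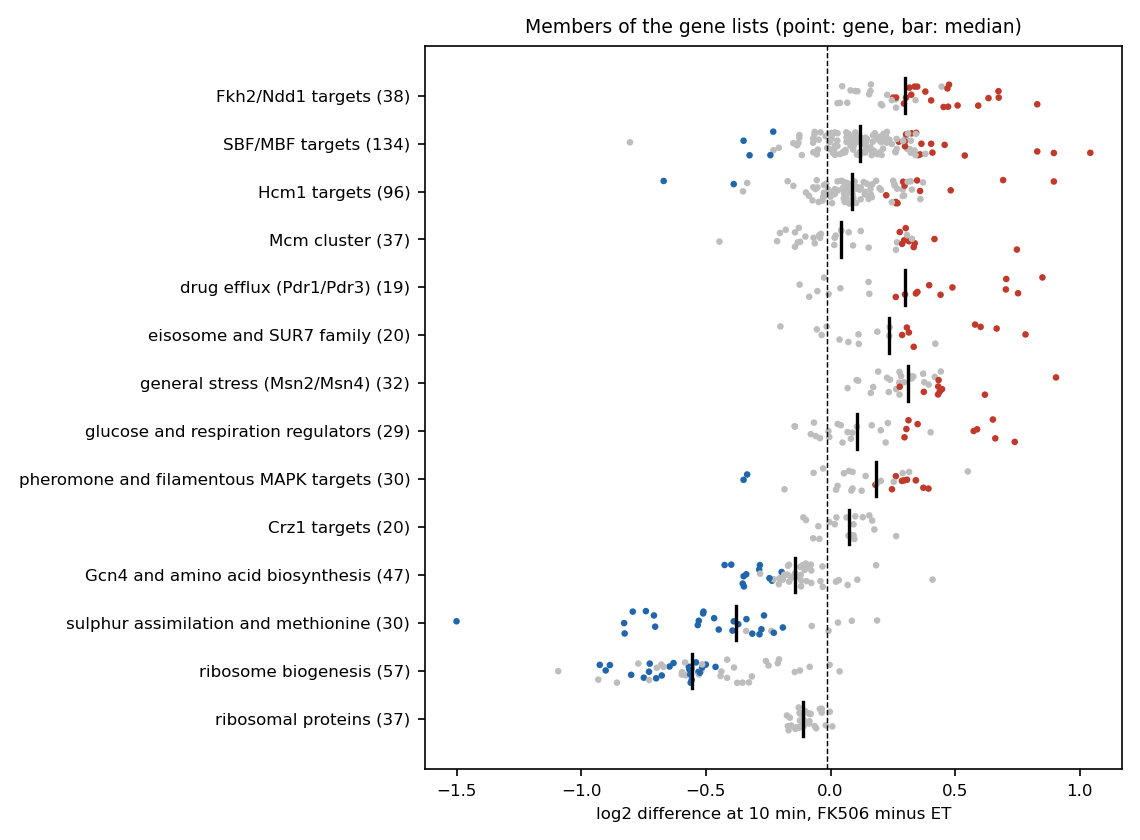
log2 difference at 10 min (FK506 minus ET) of every tested member of 14 gene lists, 1 point a gene, with the number tested in parentheses and black bars at the list medians. Red and blue points passed the threshold as higher or lower, grey points did not, and the dashed line is the median of all genes; the Fkh2/Ndd1, general stress and ribosome biogenesis lists lie almost wholly on 1 side.

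A list of genes for the eisosome, a furrow-like domain of the plasma membrane, and for other plasma membrane proteins was higher in FK506. Its median was 0.24, with 13 of the 20 genes at an unadjusted p under 0.05 in limma and 7 called by edgeR. Of the 20, 8 were called higher in limma and none lower, beside 3.09% and 3.17% of all genes. They were *SUR7*, *NCE102*, *YNL194C*, *EIS1* and *LSP1* and, of the other plasma membrane genes, *ZEO1*, *MRH1* and *YRO2*. *NCE102*, which organizes these domains, had 223 and 239 CPM in ET and 354 and 354 CPM in FK506, a log2 difference of 0.60 ± 0.079 (SE, adjusted p = 0.000231). *ZEO1* had 154 and 144 CPM in ET and 245 and 207 CPM in FK506, a log2 difference of 0.58 ± 0.094 (SE, adjusted p = 0.00137). The FK506 libraries of *ZEO1* differed more than those of *NCE102*, but both stood above both ET libraries. At 0 min the list had a median of 0.10 and 1 gene called higher, *LSP1* (0.27, adjusted p = 0.0373), beside 0.661% of all genes. The difference in change from 0 min was called for *SUR7* (0.57, adjusted p = 0.0154) and *ZEO1* (0.78, adjusted p = 0.0359). Over the list the median of that difference was only 0.058. *PMA1*, the plasma membrane proton pump gene, had 5668 and 5115 CPM in ET and 6972 and 6587 CPM in FK506 and was higher at 0.32 (adjusted p = 0.00447). It was the only called gene of 15 genes for transport of protons, potassium and sodium. The count of 8 was 6 with any 1 library left out.

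Genes of drug efflux were higher in FK506, and were so already at 0 min. Pdr1 and Pdr3 are TFs that activate genes of multidrug transporters and of membrane lipids. Of 19 genes in this list 11 were higher and none lower at 10 min, beside 3.09% and 3.17% of all genes. At 0 min 10 were higher, beside 0.661% of all genes. The medians were 0.30 at 10 min and 0.28 at 0 min. *PDR15*, an ABC transporter gene, had 568 and 567 CPM in ET and 1013 and 1055 CPM in FK506, a log2 difference of 0.85 ± 0.081 (SE, adjusted p = 1.1e-05). At 0 min it had 164 and 157 CPM in ET and 296 and 316 CPM in FK506, a log2 difference of 0.90 ± 0.092 (SE, adjusted p = 4.56e-05). *PDR5* stood at 0.75 (adjusted p = 7.65e-06) at 0 min. The ABC transporter genes *SNQ2* and *YOR1* and the polyamine transporter gene *TPO1* differed by 0.40, 0.44 and 0.49 at 10 min, and by 0.61, 0.56 and 0.57 at 0 min. *RSB1*, which exports sphingoid long-chain bases, had 54.5 and 45.4 CPM in ET and 85.7 and 78.5 CPM in FK506, a log2 difference of 0.71 ± 0.081 (SE, adjusted p = 6.7e-05), while at 0 min its difference was 0.26 (adjusted p = 0.32). No gene of this list had a called difference in change from 0 min (limma), and the median of that difference was -0.08. The count of 11 was 8 or 9 with any 1 library left out.

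The core of the site bound by Pdr1 and Pdr3 (CCGCGG, which reads the same on both strands) was found in 36.8% of the 19 promoters and in 3.75% of all 5762. It is shown in capitals for 3 called pump genes.
PDR5 chrXV:619510-619551 (plus strand): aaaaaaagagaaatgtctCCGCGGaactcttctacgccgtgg
PDR15 chrIV:1278814-1278855 (plus strand): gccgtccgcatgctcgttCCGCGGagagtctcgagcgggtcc
SNQ2 chrIV:465319-465359 (plus strand): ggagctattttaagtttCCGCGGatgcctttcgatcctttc

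The window of *PDR5* held 4 such matches, that of *PDR15* 2 and that of *SNQ2* 1. The windows of *TPO1* and *YOR1* held none of these exact letters.

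Some general stress genes, which Msn2 and Msn4 activate, were higher in FK506 at 0 and 10 min. All 32 genes of the list lay above 0 at 10 min, and the median was 0.31, beside 0.31 at 0 min. At 0 min 6 were called higher, beside 0.661% of all genes. At 10 min 9 were called higher and none lower, beside 3.09% and 3.17% of all genes. In limma 22 of the 32 had an unadjusted p under 0.05 at 10 min, and edgeR called 9. The called genes were *GAC1*, *HXK1*, *DDR2*, *GLC3*, *GPH1*, *GSY1*, *YGP1*, *MSN4* and *DCS2*, of which *GLC3*, *GPH1* and *GSY1* encode enzymes of glycogen metabolism. *HXK1*, a hexokinase gene, had 2314 and 2564 CPM in ET and 3132 and 3528 CPM in FK506, a log2 difference of 0.43 ± 0.071 (SE, adjusted p = 0.00137), and *GSY1* had 926 and 982 CPM in ET and 1275 and 1354 CPM in FK506, a log2 difference of 0.45 ± 0.10 (SE, adjusted p = 0.0145). *HSP12* had 869 and 897 CPM in ET and 1043 and 1098 CPM in FK506 and did not pass (0.26, adjusted p = 0.21). Both cultures induced the list after CaCl2. From 0 to 10 min 31 of the 32 genes rose in ET and 31 in FK506, with median log2 changes of 2.32 and 2.18. Of all 6206 genes tested 1652 rose in ET and 1514 in FK506. The count of 9 fell to 1 without ET replicate 1 and to 2 without FK506 replicate 2.

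Among 29 genes of glucose repression, hexose transport and respiratory regulation 9 were higher and none lower, beside 3.09% and 3.17% of all genes. The list median was 0.11 at 10 min and 0.01 at 0 min. In limma 13 of the 29 had an unadjusted p under 0.05, and edgeR called 9. *MIG1*, the glucose repressor gene, had 48.6 and 47.4 CPM in ET and 79.1 and 82.5 CPM in FK506, a log2 difference of 0.74 ± 0.10 (SE, adjusted p = 0.00039). *HAP4*, whose product activates respiratory genes, had 207 and 177 CPM in ET and 308 and 269 CPM in FK506, a log2 difference of 0.57 ± 0.076 (SE, adjusted p = 0.000243). *MTH1*, which encodes a repressor of hexose transporter genes, had 115 and 101 CPM in ET and 174 and 154 CPM in FK506, a log2 difference of 0.59 ± 0.071 (SE, adjusted p = 9.62e-05). In these 3 genes the groups did not overlap. The hexose transporter genes *HXT3* (0.30), *HXT4* (0.35), *HXT6* and *HXT7* (0.65) and the invertase gene *SUC2* (0.30) were higher as well. *HXT7* is uncertain, since 95.1% of its 50-base windows occur elsewhere. The count of 9 was 5 without ET replicate 1 and 4 without FK506 replicate 2.

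Of 30 targets of the pheromone and filamentous growth MAP kinases, 9 were higher and 2 lower, beside 3.09% and 3.17% of all genes. The list median was 0.18. *FIG2*, which encodes an adhesin of mating cells, had 583 and 739 CPM in ET and 764 and 993 CPM in FK506, a log2 difference of 0.39 ± 0.075 (SE, adjusted p = 0.00437). The cell fusion gene *FUS1* had 333 and 339.9 CPM in ET and 401 and 406 CPM in FK506, a log2 difference of 0.25 ± 0.059 (SE, adjusted p = 0.0198). *FIG2* varied more between the replicates of each group than *FUS1*. The filamentous growth kinase gene *KSS1* was lower at -0.33 (adjusted p = 0.0146). The count depended on the fit: 0 of these genes were called higher by limma without the replicate number, 0 without ET replicate 1 and 0 without FK506 replicate 2, beside 19 at an unadjusted p under 0.05 and 10 called by edgeR in either direction with all libraries. In lists of nearby functions few genes passed. Of 34 cell wall integrity genes 3 were higher and 1 lower, of 22 osmostress genes 2 were higher (*GRE2* at 0.34 and *CIN5* at 0.36), of 38 ergosterol and sphingolipid genes 5 were higher, and of 24 glycolytic genes 2 were higher (*ALD4* at 0.34 and *TDH1* at 0.29). The 5 lipid genes were *RSB1*, *IPT1*, *SUR2*, *YPC1* and *LAC1*, all of sphingolipid synthesis, turnover or export.

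Genes of sulphur assimilation and methionine metabolism were lower in FK506. The 30 genes had a median of -0.38, with 25 at an unadjusted p under 0.05 in limma and 22 called by edgeR. Of the 30, 23 were called lower in limma and none higher, beside 3.17% and 3.09% of all genes. They span sulphate uptake (*SUL2*), its reduction (*MET3*, *MET14*, *MET10*, *MET5*), methionine synthesis (*MET2*, *MET6*), uptake of methionine and S-adenosylmethionine (*MUP1*, *SAM3*), conversion to S-adenosylmethionine (*SAM1*, *SAM2*) and the activator gene *MET4*. *MET17* of this pathway is deleted in all cultures and was not tested.

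*MUP1*, the high-affinity methionine permease gene, had 634 and 582 CPM in the ET libraries and 381 and 373 CPM in the FK506 libraries, a log2 difference of -0.70 ± 0.079 (SE, adjusted p = 6.69e-05). *MET2*, the homoserine O-acetyltransferase gene, had 68.9 and 64.6 CPM in ET and 38.5 and 37.5 CPM in FK506, a log2 difference of -0.83 ± 0.095 (SE, adjusted p = 6.7e-05). *MET6*, the methionine synthase gene, was the most highly expressed of those named here, with 4756 and 4392 CPM in ET and 3717 and 3324 CPM in FK506 and a log2 difference of -0.39 ± 0.046 (SE, adjusted p = 6.7e-05). In these 3 genes, as in *STR3*, every FK506 library lay below every ET library. *SAM3* (-0.79) and *MET1* (-0.71) showed differences of similar size, and *GSH1*, the first enzyme of glutathione synthesis, was lower at -0.36 (adjusted p = 0.00155). At 0 min the list had a median of -0.13 and 1 called gene, *SAM3*. No gene of the list had a called difference in change from 0 min, and the lowest adjusted p of the 4 genes with full values was that of *STR3* (-1.03, adjusted p = 0.0605). From 0 to 10 min 17 of the 30 rose and 3 fell in ET, and 8 rose and 6 fell in FK506. Of all 6206 genes tested 1652 rose in ET and 1514 in FK506. With 1 library left out 11, 13, 16 and 9 genes were called lower, without ET replicate 1, ET replicate 2, FK506 replicate 1 and FK506 replicate 2 in that order.

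The core bound by Cbf1 (CACGTG, the same on both strands), which recruits Met4 to sulphur genes, was found in 66.7% of the 30 promoters and in 7.19% of all 5762. It was also found in 18.2% of the genes called lower and 7.94% of those called higher. It is in capitals here for 4 called genes of sulphate reduction and methionine synthesis, of which *MET3*, *MET10* and *MET14* were chosen for their promoters after the values were seen.
MET3 chrX:455861-455902 (plus strand): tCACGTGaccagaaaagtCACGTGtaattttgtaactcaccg
MET10 chrVI:213063-213104 (plus strand): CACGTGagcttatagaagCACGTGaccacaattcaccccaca
MET14 chrXI:439590-439631 (minus strand): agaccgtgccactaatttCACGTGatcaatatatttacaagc
MET2 chrXIV:116978-117019 (plus strand): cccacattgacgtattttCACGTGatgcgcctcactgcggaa

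*MET3* and *MET10* show a pair of matches close together and had log2 differences of -0.83 and -0.47. *MET14* and *MET2* show 1 within the segment and had -0.74 and -0.83. *STR3*, with the lowest difference of the list, and *MUP1* had no such match in their windows.

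The 47 genes of Gcn4 and amino acid synthesis had a median of -0.14. Of them, 27 had an unadjusted p under 0.05 in limma, and edgeR called 10. In limma 11 were called lower and none higher, beside 3.17% and 3.09% of all genes. They included *CPA1* of arginine synthesis (-0.43, adjusted p = 0.00173), *LYS2* (-0.29), *SER33* (-0.35), *HOM3* (-0.34), *LEU9* (-0.40) and, named after its value was seen, the activator gene *GCN4* itself (-0.24). *CPA1* had 88.0 and 86.3 CPM in ET and 66.6 and 64.5 CPM in FK506. Only *CPA1* of the list had been called at 0 min (-0.32, adjusted p = 0.0137). In a list of 25 genes, mainly of amino acid permeases, 1 was lower (*BAP3*, at -0.42). The 1 gene of that list called higher was *TPO3* (0.32), a polyamine transporter gene. Of the 50-base windows of *TPO3* 40.8% occur elsewhere. Between 3 and 7 genes of the Gcn4 list were called lower with 1 library left out, fewest without ET replicate 1 or FK506 replicate 2. *ATG41*, an autophagy gene outside these lists, had 63.7 and 55.4 CPM in ET and 29.4 and 23.7 CPM in FK506, a log2 difference of -1.18 ± 0.12 (SE, adjusted p = 1.54e-05).

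Genes of ribosome biogenesis were lower in FK506, with the list median farthest from 0. Of 57 genes 23 were called lower and none higher, beside 3.17% and 3.09% of all genes. Below 0 lay 56 of the 57, and the median was -0.56. In limma 46 had an unadjusted p under 0.05, and edgeR called 20. *RRP12*, which is not in the list and acts in export of both ribosomal subunits, had 103 and 78.6 CPM in the ET libraries and 55.1 and 37.8 CPM in the FK506 libraries, a log2 difference of -0.99 ± 0.16 (SE, adjusted p = 0.00133). *NSR1*, the nucleolin gene, had 34.3 and 24.7 CPM in ET and 19.4 and 12.2 CPM in FK506, a log2 difference of -0.93 ± 0.20 (SE, adjusted p = 0.00981). In both genes replicate 1 exceeded replicate 2 in each group, and the groups did not overlap. *RPA190*, the largest subunit gene of RNA polymerase I, had 656 and 534 CPM in ET and 472 and 366 CPM in FK506, a log2 difference of -0.52 ± 0.11 (SE, adjusted p = 0.00894), and *UTP10* of the small subunit processome had 233 and 212 CPM in ET and 176 and 132 CPM in FK506, a log2 difference of -0.56 ± 0.11 (SE, adjusted p = 0.00591). At 0 min the list already had a median of -0.35 with 9 genes called lower, beside 0.902% of all genes, and no gene had a called difference in change from 0 min. From 0 to 10 min 54 of the 57 genes fell in each culture, with median log2 changes of -1.44 in ET and -1.60 in FK506. Of all 6206 genes tested 1976 fell in ET and 1873 in FK506. The calls depended on single libraries. Without ET replicate 1 and without FK506 replicate 2 limma called 0 of the 57, while it called 28 without ET replicate 2 and 19 without FK506 replicate 1. The list median was -0.37 without ET replicate 1 and -0.38 without FK506 replicate 2.

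The PAC core (GATGAG or its reverse complement), a motif of ribosome biogenesis promoters added to the search after the values were seen, was found in 91.2% of the 57 promoters and in 31.8% of all 5762. It was found in 57.3% of the genes called lower and 20.6% of those called higher. It is in capitals here for *NSR1* and *RRP12*.
NSR1 chrVII:807820-807861 (minus strand): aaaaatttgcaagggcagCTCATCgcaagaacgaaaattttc
RRP12 chrXVI:529541-529582 (plus strand): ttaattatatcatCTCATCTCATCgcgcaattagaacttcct

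*RRP12* shows 2 overlapping matches and *NSR1* shows 1. Ribosomal protein genes differed little. Of 37 genes none was called by limma or edgeR, though 36 lay below 0 and 18 had an unadjusted p under 0.05, with a median of -0.11. The lowest p-values were those of *RPS11A* (-0.17, adjusted p = 0.0621) and *RPS2* (-0.14, adjusted p = 0.0713).

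Other lists held few or no calls. None of 11 genes of CN, calmodulin and FK506-binding proteins passed in limma or edgeR (1 at an unadjusted p under 0.05), and *CNA1*, a catalytic subunit gene of CN, had 97.8 and 96.5 CPM in ET and 90.4 and 91.9 CPM in FK506. None of 20 Crz1 target genes passed in either tool (2 at an unadjusted p under 0.05), with a median of 0.08. No histone gene passed (0 of 11 at an unadjusted p under 0.05), nor did any proteasome gene (0 of 33), iron regulon gene (3 of 25) or thiamine gene (3 of 20), by limma or edgeR. Of 25 phosphate genes only *PHO91* passed (0.18, adjusted p = 0.0444). Of 30 heat shock genes 3 were lower, *FES1* (-0.36, adjusted p = 0.00137), *YDJ1* (-0.24, adjusted p = 0.0241) and *BTN2* (-0.37, adjusted p = 0.00317), all of which act in protein quality control. *BTN2* had 272 and 292 CPM in ET and 222 and 218 CPM in FK506. It is the only gene (0.0161%) called lower in the difference in change from 0 min (-0.68, adjusted p = 0.0359), and at 0 min its difference was above 0 (0.31, adjusted p = 0.0723).

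The differences at 10 min were set beside those at 0, 30 and 60 min, which come from other libraries of the same 4 cultures. At 0 min 97 genes were called. Of these, 39 were also called at 10 min, which is 40.2% of the calls at 0 min and 10% of those at 10 min, and all 39 kept their direction (20 higher and 19 lower). Of the 389 genes called at 10 min 338 had the same sign at 0 min. At 30 min 2577 genes (41.5%) were called, 22% of all genes higher and 19.5% lower, among them 283 of the 389 (72.8% of the calls at 10 min and 11% of those at 30 min). Of these 283, 159 had the same direction and 124 the opposite. At 60 min 3891 genes (62.7%) were called, 32.3% of all genes higher and 30.4% lower, with 337 of the 389 (86.6% of the calls at 10 min and 8.66% of those at 60 min), 114 in the same direction and 223 in the opposite one.

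Of the genes called in opposite directions at 10 and 30 min, 87 were lower and then higher and 37 higher and then lower. The difference between those times was called for 24.1% of all genes, 14.2% upward and 9.94% downward, and for 236 of the 389. The ribosome biogenesis median went from -0.56 at 10 min to 1.08 at 30 min and 2.66 at 60 min. For *NSR1* the log2 difference was 1.08 (adjusted p = 0.00347) at 30 min, where it had 9.14 and 6.41 CPM in ET and 15.2 and 18.4 CPM in FK506. The general stress median went the other way, to -0.31 at 30 min and -1.38 at 60 min. *DDR2*, a stress-induced gene, went from 0.62 at 10 min to -0.57 (adjusted p = 0.0019) at 30 min. The eisosome median went to -0.16 at 30 min (5 of 20 genes higher and 9 lower) and -0.46 at 60 min (3 higher and 14 lower). The pheromone and filamentous growth median was 0.12 at 30 min and -0.78 at 60 min, with 1 of 30 genes higher and 28 lower at 60 min. The medians of the Fkh2/Ndd1 targets and of the sulphur genes kept their sign, at 0.43 and -0.88 at 30 min. By 60 min these medians were 0.30 and -1.09. At 30 min 33 of 38 Fkh2/Ndd1 targets were higher and none lower, and 26 of 30 sulphur genes were lower and none higher. At 60 min 20 Fkh2/Ndd1 targets were higher and 2 lower, and 26 sulphur genes were lower and 2 higher. *SRC1* was then lower, at -0.28 (adjusted p = 0.000342). *CLB2* had 90.2 and 102 CPM in ET and 171 and 171 CPM in FK506 at 30 min, a log2 difference of 0.80 (adjusted p = 1.04e-07), and *STR3* had 136 and 123 CPM in ET and 29.6 and 24.3 CPM in FK506, a log2 difference of -2.29 (adjusted p = 5.44e-10). The drug efflux median was -0.05 at 30 min, with 7 of 19 genes higher and 4 lower, though *PDR5* was still higher at 0.44 (adjusted p = 4.9e-05).

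**Figure D4:**
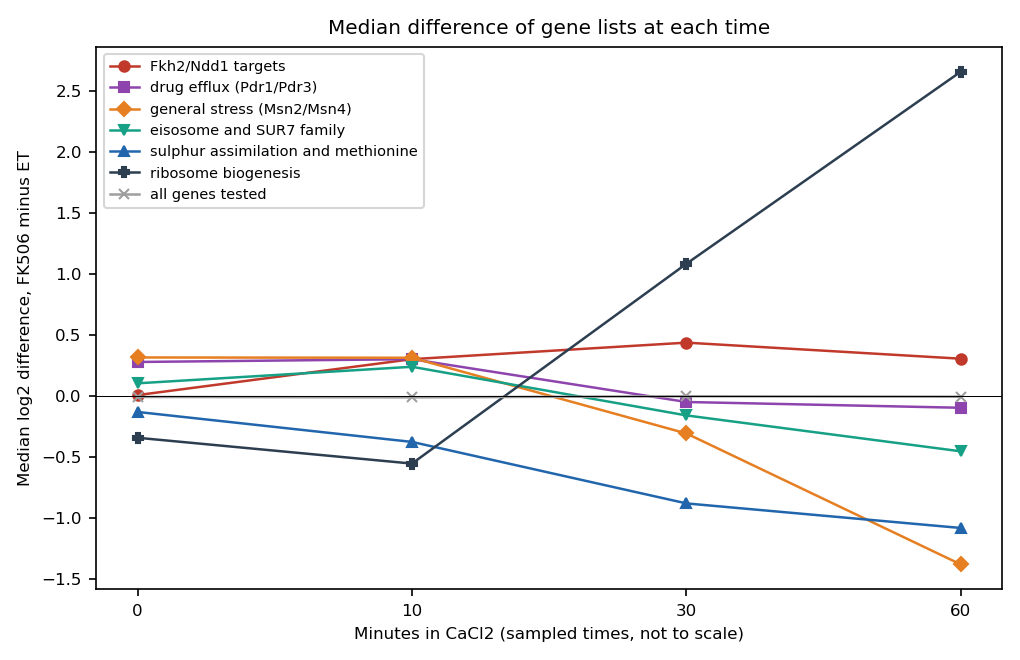
Median log2 difference between FK506 and ET of 6 gene lists and of all genes tested at 0, 10, 30 and 60 min (sampled times on the horizontal axis, not to scale). Ribosome biogenesis turns from -0.56 at 10 min to 1.08 at 30 min and general stress from 0.31 to -0.31, while the Fkh2/Ndd1 targets start at 0.00 and stay above 0.

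Motif matches were counted in the 600 bases before the start codon of 189 genes called higher, 192 called lower and all 5762 protein-coding nuclear genes tested, on both strands. The forkhead letters (GTAAACA) were in 22.8% of the promoters of genes called higher, 13% of those called lower and 12% of all. The MBF letters (ACGCGT) were in 15.3%, 3.12% and 6.44%, whereas the SBF letters (CACGAAA) were in 7.94%, 8.33% and 8.33%. The stress element bound by Msn2 and Msn4 (AGGGG) was in 56.1%, 34.9% and 39.9%. No match to it was in the windows of *SUR7*, *GAC1* and *RGI2*, all called higher, while those of *YNL194C* and *DDR2* held 4 each. The Gcn4 letters (TGACTC) were in 11.6%, 21.4% and 15.6%, and the Pdr1/Pdr3 letters in 8.47%, 3.65% and 3.75%. The Mcm1 letters alone were in 62.4%, 55.7% and 56.6%. The windows may reach into neighbouring genes, and a match is not evidence that a factor was bound.

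**Figure D5:**
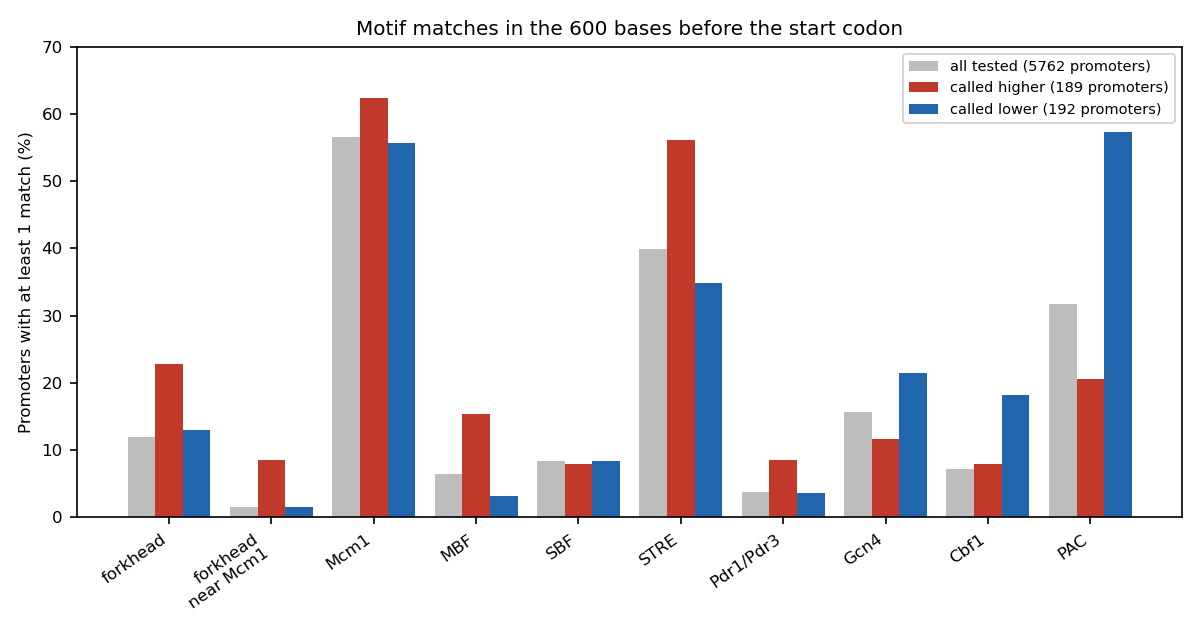
Share of promoters with at least 1 match to each motif (bars from 0, in percent) among all 5762 genes tested, 189 called higher and 192 called lower in FK506. The forkhead, MBF, stress element and Pdr1/Pdr3 bars are tallest for genes called higher, and the PAC, Cbf1 and Gcn4 bars for genes called lower.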

How the data were processed

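RNA-seq counts of 16 libraries (8 groups of 2) were analysed. The authors made strand-specific libraries from total RNA depleted of ribosomal RNA and read them single-end, and they deposited whole-number counts per feature for 7126 features. The submitters' processing notes name TopHat2 2.1.1, Subread 1.5.3 with featureCounts, and build sacCer3, while the study's methods name another counter. The strand setting of the counting was not given in the sources used here. Of the features, 6048 matched R64 annotation by locus and 31 by symbol.

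The model terms followed the study's methods, but 2 choices differed. The direct difference at 10 min was tested, where the study compared changes from 0 min, and the correlation was estimated within a time course, where the study names condition and genotype. limma 3.58.1 (voom) in R 4.3.3 was fitted to all 16 libraries with TMM factors from edgeR 4.0.16, the filterByExpr filter (10 counts, 6206 features kept), group and replicate number as terms, and the correlation within a time course (-0.117), leaving 7 residual degrees of freedom. The study did not define its batch, and the replicate number was used for it. Genes were called at a Benjamini-Hochberg adjusted p under 0.05 over all genes tested. CPM used raw library totals, from 11221758 to 11970166. The samples were duplicate time courses. The p-values measure the spread between replicate libraries that remains after the replicate term, pooled over the 8 groups. An exact permutation test of 2 against 2 libraries cannot go below p = 0.333 and was not used.

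Gene lists, named genes and motifs were chosen with earlier results of these data known. The 5 cell cycle lists are those the study used, taken from earlier literature, and 27 others were written from gene function. Some genes, 1 list and 1 motif are not reported here. Named genes were fixed cell cycle and stress genes, the 12 highest and 12 lowest called log2 differences, the 10 lowest p-values, and up to 6 called genes a list, or 2 where none was called. Genes named outside this rule were picked after their values were seen, among them members given to show what a list held. Promoters were the 600 bases before each start codon in R64, read from the RefSeq genome. Alternatives were edgeR, DESeq2 1.42.0, other scalings and filters, fits without the replicate number or the correlation, the 4 libraries alone, the change from 0 min and leaving out each library. The scripts were tested on simulated data.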

Additional observations from a re-analysis of the deposited data

Results flagged for a closer look

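The difference between FK506 and ET was compared between times by a limma test of that difference, with a Benjamini-Hochberg adjusted p under 0.05 over all genes. Of the 136 genes chosen by rule 5 passed for 10 against 0 min and 71 for 30 against 10 min. Given here are those 5 and the 22 of the 71 that were called in opposite directions at 10 and 30 min. Values are the later log2 difference minus the earlier one. From 0 to 10 min it rose for the cyclin genes *CLB2* (0.70) and *CLB1* (0.87) and for the plasma membrane genes *SUR7* (0.57) and *ZEO1* (0.78), and fell for *BTN2* (-0.68).

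From 10 to 30 min the difference rose for genes of ribosome biogenesis and tRNA modification, namely *HCA4* (2.44), *TRM11* (3.00), *RRP12* (1.69), *RRS1* (2.50), *NSR1* (2.01), *PUF6* (2.46), *YTM1* (1.69), *UTP10* (1.56), *HAS1* (1.22) and *RPA190* (1.34). It also rose for *FAA3* (0.49), a gene of fatty acid activation, and *LEU9* (0.86), a gene of leucine synthesis. It fell for stress and carbon metabolism genes, namely *RGI2* (-1.80), *MPC3* (-1.59), *DDR2* (-1.19), *GLC3* (-0.73), *CIN5* (-1.27), *MTH1* (-1.05) and *ALD4* (-0.66), and for the membrane genes *YNL194C* (-1.22), *PNS1* (-0.87) and *EIS1* (-0.49). These comparisons used the same 10 min libraries as the report.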

How the results depend on the processing

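The total of 389 calls (192 higher, 197 lower) was 160 (119 and 41) with only the 4 libraries of 10 min, 5 (4 and 1) for the change from 0 min and 11 (5 and 6) with a log2 difference of at least 1. DESeq2 called 126 lower. With 1 library left out the totals ranged from 86 to 241, from 53 to 109 higher and from 26 to 132 lower. Of all calls, 54.2% were higher with RLE scaling or DESeq2 and 58.4% with raw library totals, beside 49.4% in the limma fit.

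Replicate numbers were not shown to pair the libraries. Deviations of same-numbered libraries correlated at 0.176 between ET and FK506 at 10 min, and over 28 pairs of groups the correlation ran from -0.0534 to 0.227, above 0.1 in 12. Without the replicate block 164 genes were called (88 higher, 76 lower), all 164 among the 389. List calls were then 12 (Fkh2/Ndd1), 6 (SBF/MBF), 3 (Hcm1), 4 (general stress), 0 (pheromone), 14 (sulphur), 10 (ribosome biogenesis) and 7 (Gcn4).

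With the 4 libraries alone list calls were 4 (SBF/MBF), 2 (Hcm1), 5 (pheromone), 12 (sulphur), 1 (ribosome biogenesis) and 3 (Gcn4), and with DESeq2 13 (ribosome biogenesis) and 7 (Gcn4). For the change from 0 min they were 2 for Fkh2/Ndd1 and eisosome and 0 for the other lists, and at a log2 difference of at least 1 they were 1 for SBF/MBF and sulphur and 0 for the others. With 1 library left out they ranged from 8 to 12 (Fkh2/Ndd1), 1 to 5 (SBF/MBF), 2 to 6 (Hcm1), 1 to 8 (general stress), 4 to 7 (glucose), 0 to 4 (pheromone), 9 to 16 (sulphur), 0 to 28 (ribosome biogenesis) and 3 to 7 (Gcn4).

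Medians moved little with scaling. With RLE and with raw totals they were 0.31 (Fkh2/Ndd1), 0.13 (SBF/MBF), 0.10 (Hcm1) and -0.13 (Gcn4), and for general stress 0.32 and 0.33. Without the 10 features with most counts they were 0.31 (Fkh2/Ndd1), 0.10 (Hcm1) and 0.32 (general stress). Means were 0.32 (Fkh2/Ndd1), 0.10 (Hcm1), 0.33 (general stress), 0.19 (glucose) and -0.53 (ribosome biogenesis), and the Fkh2/Ndd1 median was 0.31 without members shared with SBF/MBF. For the change from 0 min medians were 0.28 (Fkh2/Ndd1), 0.10 (SBF/MBF), 0.11 (Hcm1), 0.058 (eisosome), -0.092 (Gcn4), -0.23 (sulphur), 0.13 (pheromone) and -0.21 (ribosome biogenesis), and turned to -0.078 for drug efflux and -0.084 for general stress. With 1 library or replicate left out they ranged from 0.26 to 0.34 (Fkh2/Ndd1), 0.10 to 0.13 (SBF/MBF), 0.079 to 0.10 (Hcm1), 0.22 to 0.28 (eisosome), -0.16 to -0.11 (Gcn4), 0.21 to 0.43 (general stress), 0.12 to 0.22 (pheromone), 0.10 to 0.15 (glucose) and -0.73 to -0.37 (ribosome biogenesis).

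Genes shared with other times at a log2 difference of at least 1 were 0 at 0 min, 2 in the same and 2 in the opposite direction at 30 min, and 3 and 2 at 60 min. Of 134 named genes with a call or value, edgeR kept the call of 133 and the fit without the replicate block that of 91, with no change of direction. For the change from 0 min 13 turned: *RGI2* (-0.42), *MPC3* (-0.36), *PDR15* (-0.051), *PDR5* (-0.046), *TPO1* (-0.078), *SNQ2* (-0.21), *YOR1* (-0.11), *HXK1* (-0.15), *GLC3* (-0.087), *GPH1* (-0.11), *GSY1* (-0.34), *ALD4* (-0.089) and *TDH1* (-0.015). Beyond fewer libraries or a stricter threshold, the cause was not tested. With 2 libraries a group, genes with few counts were the least precise.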

Other observations

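Glycogen genes, a group chosen after the values were seen and therefore not tested as a group, were all above 0 at 10 min. Of 17 genes 9 were called higher in FK506 and none lower, beside 3.09% and 3.17% of all genes. The median log2 difference was 0.33 at 10 min, beside 0.39 at 0 min, -0.18 at 30 min and -0.88 at 60 min. The called genes included the synthase gene *GSY1*, the branching enzyme gene *GLC3*, the phosphorylase gene *GPH1*, the debranching enzyme gene *GDB1* and the phosphatase subunit genes *GAC1*, *GIP2* and *PIG2*. Of these, *GSY1*, *GLC3*, *GPH1* and *GAC1* are also among the called general stress genes above, so the groups are not separate.

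Genes of translation, picked in the same way, lay mostly below 0 at 10 min. Over all genes 3.17% were called lower and 3.09% higher. Of 21 cytosolic aminoacyl-tRNA synthetase genes 6 were lower and none higher, with a median of -0.15 and all 21 below 0. Of 33 translation factor genes 9 were lower and none higher, with a median of -0.18 and 31 below 0, among them *TEF1* and *YEF3* of elongation and *SUI2*, *TIF5* and *PRT1* of initiation. At 60 min the medians were 0.98 and 1.11.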
